A study of Homo sapiens with 24 samples.

Results

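H19, IGF2 and 6 further imprinted genes, CDKN1C, KCNQ1OT1, PHLDA2, MEG3, PEG10 and MEST, were followed in SAS and Cal33, which are established human squamous cell carcinoma lines labelled as tongue. These 8 genes were taken by name from the 57820 genes of the count tables, and the set was selected on the level of H19 in SAS. That level and its difference from Cal33 are therefore described here without a test. Each line was given 4.5 µM GSK-J1 together with 4 Gy of x-rays, 4 Gy alone, GSK-J1 alone, or a sham treatment, and total RNA was sequenced 24 h later from 3 samples per group, 24 libraries in all. GSK-J1 inhibits KDM6A and KDM6B, the demethylases that remove methyl groups from lysine 27 of histone H3, and all 8 groups carry the label of wild-type genotype. The RNA was taken in triplicate and nothing states that the triplicates were separate cultures, so every p-value measures only the spread between these samples. Each line is a single culture line, so a difference between SAS and Cal33 is one between these libraries.

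Genomic imprinting leaves a gene active mainly from the copy inherited from 1 parent, through DNA methylation set in the germ line at an imprinting control region. At the H19 and IGF2 locus, the protein CTCF binds the unmethylated maternal copy of such a region and directs shared enhancers to H19, whereas methylation of the paternal copy leaves those enhancers to IGF2. H19 is a long noncoding RNA of the fetus and placenta that is largely silent in most adult tissues and returns in many carcinomas. Neighbouring KCNQ1OT1 is a paternal antisense RNA that silences CDKN1C, PHLDA2 and KCNQ1 on its own copy. The counts analysed here do not separate the parental copies.

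The genes lie on 3 chromosomes of the genome build hs37d5. H19 (ENSG00000130600.11) is at chr11:2016406-2022700, IGF2 at chr11:2150342-2170833, KCNQ1OT1 at chr11:2629558-2721224, CDKN1C at chr11:2904443-2907111 and PHLDA2 at chr11:2949503-2950685, all on the minus strand of 11p15. MEG3 is at chr14:101245747-101327368, PEG10 at chr7:94285637-94299007 and MEST at chr7:130126012-130146133, each on the plus strand. No other gene of the annotation overlaps H19. IGF2 shares its strand with INS-IGF2, AC132217.4 and MIR483, so reads in shared exons could not be assigned to it. MEST shares its strand with MIR335, and KCNQ1OT1 lies antisense to KCNQ1.

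H19 and MEST also host microRNAs. The total RNA libraries do not measure these mature forms, which are shown because they are products of the 2 members most abundant per kilobase in SAS. Letters are from RefSeq (GRCh38.p14), 5′ to 3′, with the seed (bases 2 to 8) in capitals. The 4 seeds all differ from each other.
hsa-miR-675-5p: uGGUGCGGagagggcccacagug
hsa-miR-675-3p: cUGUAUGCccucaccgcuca
hsa-miR-335-5p: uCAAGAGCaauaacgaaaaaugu
hsa-miR-335-3p: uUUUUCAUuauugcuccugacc

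The RefSeq promoter table (250 bases before to 50 bases after a start) matched 3 of the 8 members. The windows of H19 and MEST are shown because CG dinucleotides, capitalised here, are where imprint methylation sits, and because these genes had the highest levels in SAS. Both are written 5′ to 3′ on the gene's strand, H19 from chr11:2001217-2001516 and MEST from chr7:130491835-130492134 of GRCh38.p14. The H19 window holds 6 CG and the MEST window 25, against a median of 14 over 35116 promoters of the same length. MEST had 5 starts in the promoter table and the window with the most CG was taken, whereas H19 had 1 start. At least 6 CG were found in 66.3% of those promoters and at least 25 in 32.0%. DNA methylation was not measured in these libraries.
H19: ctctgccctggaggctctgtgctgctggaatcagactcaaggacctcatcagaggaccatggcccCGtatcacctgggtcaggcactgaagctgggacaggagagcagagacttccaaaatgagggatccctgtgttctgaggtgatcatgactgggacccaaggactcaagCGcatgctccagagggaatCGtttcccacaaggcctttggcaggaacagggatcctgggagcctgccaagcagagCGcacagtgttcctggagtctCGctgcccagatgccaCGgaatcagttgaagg
MEST: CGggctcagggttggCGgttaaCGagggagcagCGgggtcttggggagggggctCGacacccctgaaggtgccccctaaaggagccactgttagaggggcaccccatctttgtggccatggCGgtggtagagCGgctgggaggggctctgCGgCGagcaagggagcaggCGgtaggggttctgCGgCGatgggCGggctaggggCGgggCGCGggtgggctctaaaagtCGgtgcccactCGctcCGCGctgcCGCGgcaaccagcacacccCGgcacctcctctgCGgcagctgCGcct

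The libraries held 54200036 to 96848227 reads on the gene strand. The 7 squamous markers (KRT5, KRT14, KRT17, TP63, CDH1, SFN and DSP) summed to 3313 to 4786 CPM in SAS and 6428 to 9577 CPM in Cal33, where CPM are read counts scaled to a library total of 1000000. The 6 fibroblast markers summed to 1.79 to 5.22 CPM in SAS and 23.4 to 44.0 CPM in Cal33. Transcripts typical of Cal33, here called Cal33 transcripts, appeared in SAS libraries. A set of 14 such genes stood at 1.95% of their Cal33 level in GSK-J1 replicate 1 and at 0.816% in GSK-J1 + 4 Gy replicate 1. In the other 10 SAS libraries the share was 0.0115% to 0.440%, highest in sham replicate 1. These 14 genes had at least 20 CPM in Cal33 sham libraries and at most 0.02 CPM in the lowest SAS sham library. Their share in SAS sham libraries was thus held low in advance. Whether the reads crossed over from Cal33 was not tested. Results that rest on GSK-J1 replicate 1 or GSK-J1 + 4 Gy replicate 1 are given with and without these 2 libraries.

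H19 was the most abundant gene in all 12 SAS libraries, by CPM and by the authors' TPM. In SAS it stood at 16669, 20551 and 17183 CPM after GSK-J1 + 4 Gy, 18832, 17541 and 16554 CPM after 4 Gy, 29666, 34625 and 26797 CPM after GSK-J1, and 36641, 38877 and 30423 CPM after sham. A single noncoding RNA thus took 2.88% to 3.58% of all gene counts of a sham library. In Cal33 it stood at 26.1, 30.0 and 31.6 CPM after GSK-J1 + 4 Gy, 36.4, 29.2 and 37.4 CPM after 4 Gy, 42.8, 90.1 and 41.2 CPM after GSK-J1, and 91.3, 36.7 and 45.7 CPM after sham. Its place among all genes in Cal33 ran from 2262 to 6647. The sham means were 35314 ± 4381 CPM in SAS and 57.9 ± 29.3 CPM in Cal33 (SD, n = 3 each), a fitted difference of 9.25 on the log2 scale, or 610-fold. CPM values are scaled by TMM over the 24 libraries. In bulk RNA, fewer cells that express a gene and less RNA per cell cannot be told apart.

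**Figure D1:**
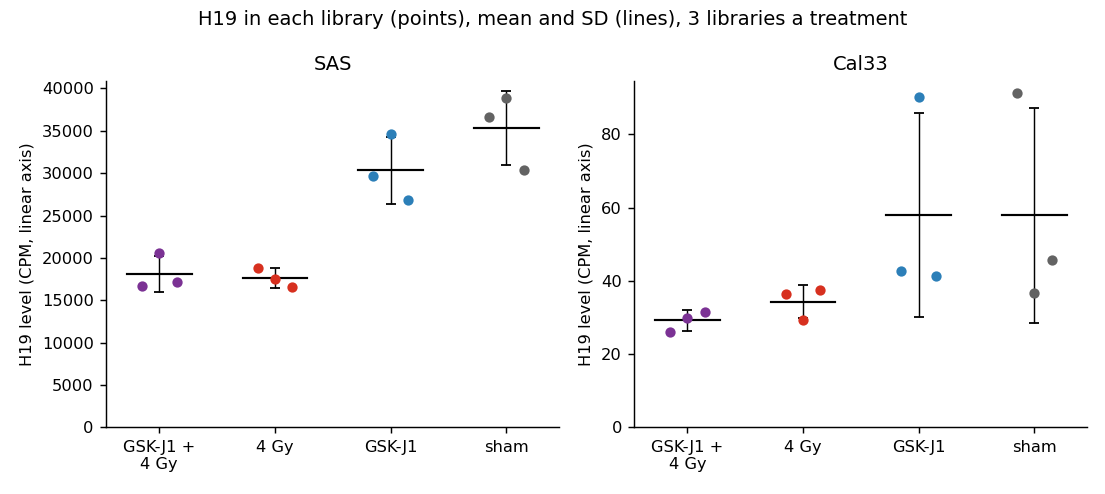
H19 in CPM (linear axis, each panel with its own scale) in each of the 24 libraries, SAS in the left panel and Cal33 in the right. Treatments run from GSK-J1 + 4 Gy to sham, lines mark group means and bars 1 SD. In SAS the 6 irradiated libraries sit between 16554 and 20551 CPM, below the 6 that were not irradiated (26797 to 38877 CPM).

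The low H19 level of Cal33 was set against reads that might have crossed over from SAS libraries. A group of 8 genes with at least 20 CPM in SAS sham libraries and at most 0.02 CPM in the lowest Cal33 sham library stood at 0.00406% to 0.0355% of their SAS level in the Cal33 libraries. That share of the highest SAS H19 level would give 1.58 to 2.05 CPM in Cal33 sham libraries, against 36.7 to 91.3 CPM measured, and 3.08 to 13.8 CPM in the 6 irradiated ones, against 26.1 to 37.4 CPM measured. It came nearest to the measured level in 4 Gy replicate 3, at 13.8 of 37.4 CPM, and in GSK-J1 + 4 Gy replicate 3, at 12.1 of 31.6 CPM. The 8 genes were chosen partly by a low level in Cal33 sham libraries, so their share there was held low in advance. The sham values therefore cannot decide how many H19 reads crossed over. The part of such reads in the H19 values of Cal33 was not tested. Reads on the strand opposite H19 were 0.190% to 1.72% of the reads of both strands there in SAS. The neighbouring MRPL23-AS1, chosen after its values were seen, had 2393 counts over the 12 SAS libraries and 3 over the 12 Cal33 libraries.

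Per kilobase of exon, H19 stood far above the other members in sham-treated SAS. Mean sham levels there were 12558 CPM per kb for H19, 68.3 for MEST, 19.9 for PHLDA2, 4.50 for PEG10, 0.220 for CDKN1C, 0.0397 for IGF2, 0.0273 for KCNQ1OT1 and 0.0121 for MEG3. In sham-treated Cal33 the order was PHLDA2 at 33.5 CPM per kb, H19 at 20.6, MEST at 3.79, CDKN1C at 1.22, PEG10 at 0.157, KCNQ1OT1 at 0.0309, IGF2 at 0.00713 and MEG3 with no read. Among neighbours in these orders, the libraries of IGF2 and KCNQ1OT1 overlapped in SAS and those of PHLDA2 and H19 overlapped in Cal33, and the others did not overlap.

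**Figure D2:**
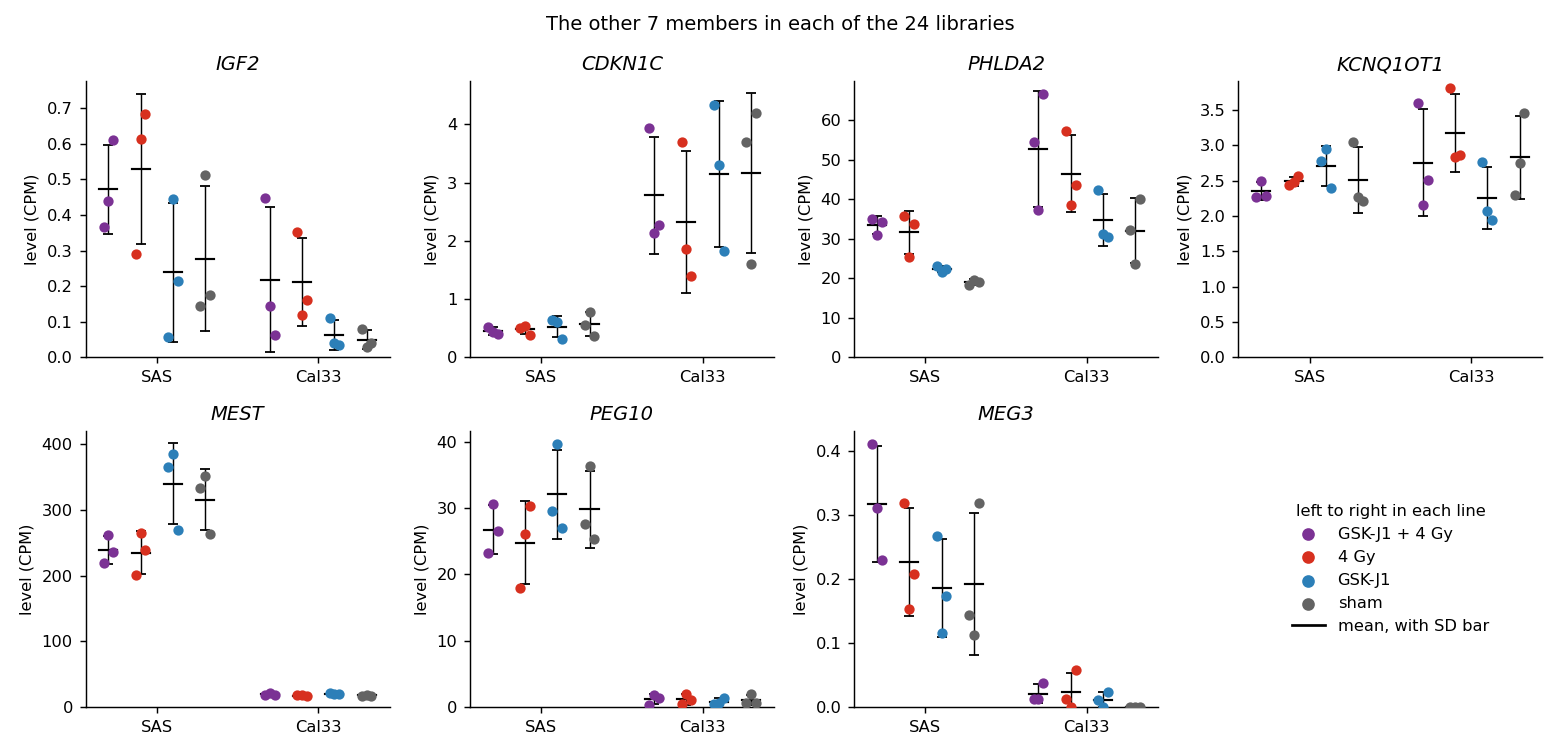
CPM (linear axis, each gene with its own scale) of the 7 members other than H19 in each of the 24 libraries, by line and treatment. MEST and PEG10 sit higher in SAS, CDKN1C and PHLDA2 lower in SAS, and MEG3 has no read in the 3 Cal33 sham libraries.

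The comparison of the sham-treated lines asked which of the other members separated the lines. Of the 7 tested, 4 were higher and 2 were lower in SAS than in Cal33 by the edgeR quasi-likelihood test, in a comparison that called 54.5% of 24597 genes (27.2% in each direction). Calls were thus common among all genes in this comparison. The fibroblast markers given above also stood lower in SAS, and their part in the differences between the lines was not tested.

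MEST and PEG10, paternally expressed genes of chromosome 7, stood higher in SAS. MEST, an endoplasmic reticulum protein of the hydrolase fold family, had 332.9, 351.2 and 262.8 CPM in SAS sham libraries, against 17.28, 18.12 and 17.22 CPM in Cal33 sham libraries. The groups did not overlap, and the log2 fold change was 4.17 (SE 0.15, edgeR adjusted p = 1.66e-15). PEG10, a gene derived from a retrotransposon and needed for the mouse placenta, had 27.65, 36.42 and 25.35 CPM in SAS and 0.609, 1.97 and 0.552 CPM in Cal33, a log2 fold change of 4.86 (SE 0.57, edgeR adjusted p = 2.59e-07). Its lowest SAS library lay well above its highest Cal33 library.

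IGF2, a fetal growth factor that signals through the type 1 IGF receptor, had few assigned reads in both lines. It had 9, 32 and 16 counts in SAS sham libraries, against 6, 2 and 4 in Cal33 sham libraries. The groups did not overlap in CPM, and the log2 fold change was 2.42 (SE 0.80, edgeR adjusted p = 0.0140). Without SAS sham replicate 2 the IGF2 value was 1.63 (adjusted p = 0.120), and without Cal33 sham replicate 3 it was 2.28 (adjusted p = 0.0510), so the call rests on single libraries. The overlapping INS-IGF2 was listed at 0 counts in all 24 libraries, but reads in shared exons could not be assigned to either gene. The counts may therefore understate IGF2. H19 was thus near the top of the SAS transcriptome, while its reciprocally imprinted neighbour IGF2 had 0.0562 to 0.685 CPM of assigned reads over the 12 SAS libraries.

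MEG3, a maternally expressed noncoding RNA of chromosome 14, had 9, 7 and 29 counts in SAS sham libraries and 0 counts in each Cal33 sham library. Against a floor of 3 counts over the Cal33 group, its pooled SAS level was 14.8-fold higher, with 29 of the 45 SAS counts in replicate 3. The edgeR test of the fitted difference, which is not a test of that value, gave an adjusted p of 3.26e-05.

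CDKN1C and PHLDA2, maternally expressed genes of the KCNQ1OT1 domain, stood lower in SAS. CDKN1C, the inhibitor of cyclin-dependent kinases called p57, had 0.560, 0.783 and 0.362 CPM in SAS, against 3.70, 1.604 and 4.19 CPM in Cal33, a log2 fold change of -2.49 (SE 0.43, edgeR adjusted p = 4.16e-05). PHLDA2, a protein with a pleckstrin homology domain that restrains placental growth in the mouse, had 18.15, 19.58 and 19.14 CPM in SAS, against 32.29, 23.65 and 40.02 CPM in Cal33, a log2 fold change of -0.76 (SE 0.20, edgeR adjusted p = 0.00283). Neither gene overlapped between the lines. KCNQ1OT1 itself had 3.04, 2.27 and 2.21 CPM in SAS and 2.29, 2.75 and 3.45 CPM in Cal33, and the groups overlapped (log2 fold change -0.18, edgeR adjusted p = 0.491). The opposite strand held 0.556% to 5.33% of the reads of both strands at its locus in SAS and 8.12% to 47.9% in Cal33. The antisense partner KCNQ1 was higher in Cal33.

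The lists of imprinted genes were read against the same background. Of the 8 tested 11p15 genes other than H19, 1 was higher and 5 were lower in SAS, with a median log2 fold change of -0.86. These include the members IGF2, CDKN1C, KCNQ1OT1 and PHLDA2. Apart from the members, 0 were higher and 3 were lower. KCNQ1, a potassium channel, had the largest of these changes at -3.88 (SE 0.56, edgeR adjusted p = 4.51e-06). Of 26 tested imprinted genes elsewhere, PEG10, MEST and MEG3 included, 18 were higher and 3 were lower in SAS, with a median of 1.62. PLAGL1, a paternally expressed zinc finger gene, was among the higher genes (log2 fold change 8.66), and SNHG14 and CALCR had 5.94 and 0.359 CPM in SAS sham libraries and no read in Cal33 sham libraries.

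**Figure D3:**
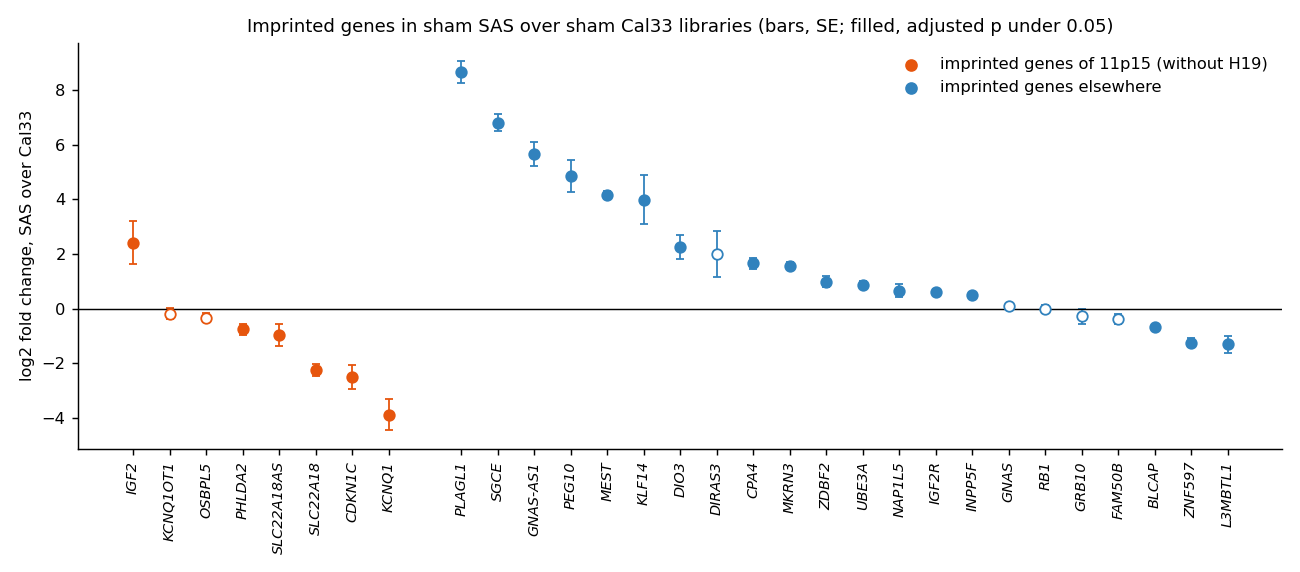
Log2 fold change of SAS over Cal33 in sham-treated libraries for 8 imprinted genes of 11p15 (without H19) and 22 imprinted genes elsewhere with counts in both groups; filled points have an edgeR adjusted p under 0.05. In 11p15, 1 gene is called higher and 5 are called lower in SAS, with KCNQ1 lowest at -3.88.

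The insulin-like growth factor genes and the known regulators of imprints were counted in the same comparison. Over all genes tested there, 27.2% were higher and 27.2% lower in SAS. Of 16 tested genes of the growth factor axis, IGF2 included, 10 were higher and 3 were lower in SAS. The binding proteins pointed both ways, with IGFBP1 at 5.78, IGFBP2 at -5.71 and IGFBP5 at -4.67 on the log2 scale. The receptors IGF1R and IGF2R both had their higher level in SAS, at 145.8 ± 9.02 CPM against 72.1 ± 7.92 CPM in Cal33 for IGF1R and 360.5 ± 32.2 CPM against 232.9 ± 8.70 CPM in Cal33 for IGF2R (SD, n = 3 each). Of 22 tested regulators of DNA methylation, histone methylation and imprint maintenance, 11 were higher and 2 were lower in SAS. Among them ZFP57 and ZNF445, zinc finger proteins that protect imprints, were higher in SAS by 2.30 and 1.44 on the log2 scale.

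In SAS after 4 Gy, H19 was lower and PHLDA2 higher than after sham, and the other 6 members were not called by the edgeR test. In this comparison 7.08% of 23416 genes were called, 3.63% higher and 3.45% lower, so 1 member in each direction is a small count.

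H19 had 18832, 17541 and 16554 CPM after 4 Gy, against 36641, 38877 and 30423 CPM after sham. Every irradiated library lay far below every sham library, and the level was 0.499 times that of sham (log2 fold change -1.003, SE 0.13, edgeR adjusted p = 0.00102). Leaving out any 1 of the 6 libraries gave values of -1.10 to -0.93, with a highest adjusted p of 0.00716. PHLDA2 had 35.71, 25.43 and 33.75 CPM after 4 Gy, against 18.15, 19.58 and 19.14 CPM after sham. The groups did not overlap, and the level was 1.67 times that of sham (log2 fold change 0.74, SE 0.12, edgeR adjusted p = 0.00329).

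The same step under GSK-J1 used 6 other libraries of the same fit. There, 1036 genes (4.42%) were called, 2.43% higher and 1.99% lower, among them the same members. H19 had 16669, 20551 and 17183 CPM after GSK-J1 + 4 Gy, against 29666, 34625 and 26797 CPM after GSK-J1 alone, again without overlap (log2 fold change -0.75, SE 0.13, edgeR adjusted p = 0.00714). PHLDA2 had 35.07, 30.85 and 34.25 CPM after GSK-J1 + 4 Gy, against 23.06, 21.59 and 22.27 CPM after GSK-J1 (log2 fold change 0.58, SE 0.12, edgeR adjusted p = 0.0153). All 3 libraries with both agents were above all 3 with GSK-J1. Without the 2 libraries that carried Cal33 transcripts, H19 was at -0.71 (adjusted p = 0.0880) and PHLDA2 at 0.56 (adjusted p = 0.137), and 97 genes in all were called. PHLDA2 lost its call without GSK-J1 replicate 1 or 2, or without GSK-J1 + 4 Gy replicate 1 or 3.

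Markers of other cell types were set beside the H19 values in SAS. The 5 leukocyte markers summed to 6.58 to 11.8 CPM after 4 Gy and 10.6 to 24.5 CPM after sham, most of it CD14, with CD3E at 0 in the sham libraries. They summed to 5.44 to 8.48 CPM after GSK-J1 + 4 Gy and 8.98 to 15.6 CPM after GSK-J1, ranges that did not overlap. The 3 endothelial markers in the tables summed to 21.97 to 35.8 CPM after 4 Gy and 11.03 to 99.0 CPM after sham, with CLDN5 at 0. The 6 fibroblast markers summed to 3.65 to 5.22 CPM after 4 Gy and 1.79 to 4.33 CPM after sham, and the 4 melanocyte and neural markers to 2.00 to 2.92 CPM after 4 Gy and 2.61 to 3.34 CPM after sham, with MLANA at 0 in both groups. Their part in the H19 and PHLDA2 results was not tested. Of the squamous markers, KRT14 was higher (0.79 on the log2 scale, edgeR adjusted p = 0.00366) and KRT17 lower (-0.47, adjusted p = 0.00679) after 4 Gy.

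MEST did not pass the test without pairing. It had 200.2, 265.3 and 239.7 CPM after 4 Gy, against 332.9, 351.2 and 262.8 CPM after sham, and the groups overlapped by 1 library (log2 fold change -0.43, edgeR adjusted p = 0.0976). It had 219.8, 262.0 and 235.2 CPM after GSK-J1 + 4 Gy, against 365.4, 384.5 and 270.0 CPM after GSK-J1, with no overlap (log2 fold change -0.51, edgeR adjusted p = 0.0682). The replicate numbers paired the SAS libraries, and with the number as a block both values passed (adjusted p = 0.00734 and 0.00294). The same block raised the genes called to 5734 for 4 Gy against sham and to 5029 under GSK-J1, and it changed the call of no other member in SAS.

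The remaining members showed no called change under irradiation in SAS. PEG10 was at -0.27 in both comparisons on the log2 scale. IGF2 had 20, 32 and 53 counts after 4 Gy, against 9, 32 and 16 after sham, and the groups overlapped. CDKN1C was at -0.25 and KCNQ1OT1 at -0.01 after 4 Gy. MEG3 had 22, 8 and 16 counts after 4 Gy, against 9, 7 and 29 after sham.

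**Figure D4:**
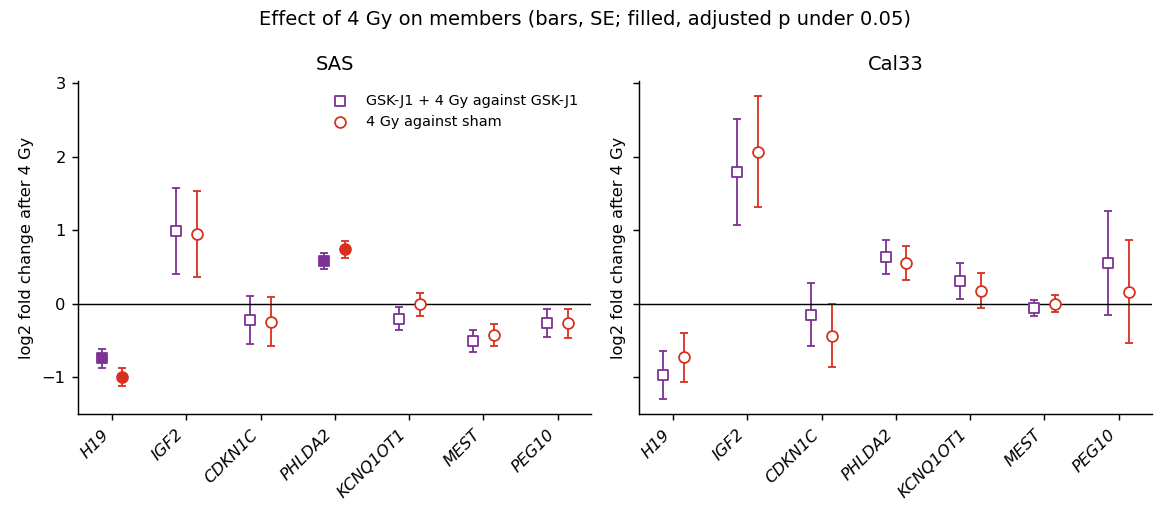
Log2 fold change with its SE for 7 members in SAS and Cal33, with GSK-J1 + 4 Gy over GSK-J1 as squares and 4 Gy over sham as circles; filled points have an edgeR adjusted p under 0.05, and MEG3 is not drawn because Cal33 had few or no reads. The filled points are H19 (-0.75 and -1.003) and PHLDA2 (0.58 and 0.74) in SAS.

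MRPL23-AS1, which lies beside H19 at chr11:2004467-2011150 on the same strand and was chosen after its values were seen, was also lower. It averaged 2.00 ± 0.392 CPM after 4 Gy and 4.18 ± 0.651 CPM after sham in SAS (SD, n = 3 each), a log2 fold change of -1.07 (SE 0.18, edgeR adjusted p = 0.00424). Under GSK-J1 it was at -0.91 (edgeR adjusted p = 0.0136), a call lost in 3 of 15 alternatives. Because the gene was chosen on its values, these p-values are no independent test. Whether its reads are separate from those of H19 was not tested. MRPL23, which codes for a mitochondrial ribosomal protein, was at -0.06 after 4 Gy and was not called.

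In Cal33 no member passed the test for either irradiation comparison. The edgeR test called 6.27% of 24351 genes for 4 Gy against sham, 3.47% higher and 2.81% lower (5459 genes had an unadjusted p under 0.05) and 5.11% for GSK-J1 + 4 Gy against GSK-J1, 3.04% higher and 2.07% lower (5190 genes). DESeq2 called 0 members in the first and 1, H19, in the second.

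H19 in Cal33 had 36.4, 29.2 and 37.4 CPM after 4 Gy, against 91.3, 36.7 and 45.7 CPM after sham. The groups overlapped, with 1 sham library far above the rest (log2 fold change -0.73, SE 0.33, edgeR adjusted p = 0.206). Under GSK-J1 it had 26.1, 30.0 and 31.6 CPM after GSK-J1 + 4 Gy, against 42.8, 90.1 and 41.2 CPM after GSK-J1. Here the groups did not overlap (log2 fold change -0.97, SE 0.33, edgeR adjusted p = 0.107).

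PHLDA2 in Cal33 had 57.22, 38.62 and 43.56 CPM after 4 Gy, against 32.29, 23.65 and 40.02 CPM after sham (log2 fold change 0.55, edgeR adjusted p = 0.179). It had 54.39, 37.36 and 66.52 CPM after GSK-J1 + 4 Gy, against 42.41, 31.28 and 30.44 CPM after GSK-J1 (log2 fold change 0.63, edgeR adjusted p = 0.139). The groups overlapped in both. The numbers paired the Cal33 libraries treated with GSK-J1, with a lowest correlation of 0.105, and with the block the PHLDA2 value under GSK-J1 passed (0.598, adjusted p = 0.0437). That block was fitted to all 12 Cal33 libraries, including the sham libraries, which the numbers did not pair.

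IGF2 in Cal33 had 28, 9 and 14 counts after 4 Gy, against 6, 2 and 4 after sham. The groups did not overlap, and the log2 fold change was 2.07 (SE 0.76, edgeR adjusted p = 0.126). It had 38, 11 and 5 counts after GSK-J1 + 4 Gy, against 11, 3 and 3 after GSK-J1, with overlap in CPM (log2 fold change 1.79, SE 0.72, edgeR adjusted p = 0.172). With the same block over all 12 Cal33 libraries, sham included, this comparison under GSK-J1 gave 1.73 (adjusted p = 0.0383). MEST was not called in Cal33, with 17.38, 18.63 and 16.12 CPM after 4 Gy, against 17.28, 18.12 and 17.22 CPM after sham.

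No member's irradiation effect was shown to differ between the lines. The edgeR test of the SAS effect minus the Cal33 effect called 0.427% of 24597 genes for 4 Gy against sham (0.142% higher and 0.285% lower) and 0.232% under GSK-J1 (0.065% higher and 0.167% lower), with 0 members in both. At an unadjusted p under 0.05 there were 2466 and 2432 genes, and DESeq2 called 439 and 399 genes. For H19 the difference was -0.25 (SE 0.38, adjusted p = 0.922) for 4 Gy and 0.25 (SE 0.38, adjusted p = 0.896) under GSK-J1. For PHLDA2 it was 0.20 (SE 0.28, adjusted p = 0.907), and for MEST -0.41 (SE 0.19, adjusted p = 0.450), both for 4 Gy.

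GSK-J1 without irradiation changed no member in either line by the test. The edgeR test called 0% of genes for GSK-J1 against sham in SAS (486 genes had an unadjusted p under 0.05) and in Cal33 (215 genes), and 0% for GSK-J1 + 4 Gy against 4 Gy in SAS (438 genes) and in Cal33 (244 genes). DESeq2 called 3 genes for GSK-J1 against sham in SAS, none of them a member, and 0 genes in the other 3 comparisons. With the replicate block edgeR called 10 genes for GSK-J1 against sham in SAS. In fits of the 6 compared libraries alone with the block, it called 596 genes there, 1903 genes for GSK-J1 + 4 Gy against 4 Gy in SAS and 127 genes for that step in Cal33. In SAS, H19 had 29666, 34625 and 26797 CPM after GSK-J1, against 36641, 38877 and 30423 CPM after sham, lower in each of the 3 pairs but with overlap (log2 fold change -0.22, SE 0.13, edgeR adjusted p = 1). PHLDA2 had 23.06, 21.59 and 22.27 CPM after GSK-J1, against 18.15, 19.58 and 19.14 CPM after sham, with no overlap (log2 fold change 0.23, SE 0.12, edgeR adjusted p = 1). In a fit of these 6 libraries alone with the replicate block, the H19 value passed (-0.21, adjusted p = 0.0315), as did the PHLDA2 value (0.24, adjusted p = 0.0487).

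On top of irradiation, GSK-J1 gave no called change of a member in either line by the edgeR test. This does not show that the levels were equal. In SAS the log2 fold change of GSK-J1 + 4 Gy over 4 Gy was 0.04 for H19 (SE 0.13) and 0.07 for PHLDA2 (SE 0.11). In Cal33 it was -0.23 for H19 (SE 0.33) and 0.19 for PHLDA2 (SE 0.23). The 2 groups overlapped for both genes in both lines.

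Other imprinted genes were counted in the same comparisons. Of 27 tested elsewhere in the genome in SAS, PEG10, MEST and MEG3 included, 0 were higher and 1 was lower after 4 Gy. Over all genes, 3.63% were higher and 3.45% lower. The gene called was the sarcoglycan gene SGCE beside PEG10, with 19.7 ± 0.504 CPM after 4 Gy and 25.5 ± 2.89 CPM after sham (SD, n = 3 each). Its log2 fold change was -0.38 (SE 0.10, edgeR adjusted p = 0.0367), and the call was lost in 7 of 15 alternatives, 5 of them fits that left out 1 library. The median over these genes was -0.05. With the replicate block, which called 5734 of all 23416 genes, 2 of the imprinted genes outside 11p15 other than the members were higher and 3 lower after 4 Gy in SAS, and the 11p15 genes KCNQ1 and OSBPL5 were lower.

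In Cal33, 3 of 24 tested imprinted genes outside 11p15 were higher after 4 Gy and 0 were lower, where 3.47% of all genes were higher and 2.81% lower. CPA4, a carboxypeptidase gene close to MEST on chromosome 7, averaged 289.9 ± 17.2 CPM after 4 Gy and 56.5 ± 7.57 CPM after sham (SD, n = 3 each), a log2 fold change of 2.37 (SE 0.16, edgeR adjusted p = 4.64e-05). GRB10, an adaptor that dampens insulin and IGF1 receptor signalling, averaged 53.4 ± 17.4 CPM after 4 Gy and 19.7 ± 3.41 CPM after sham, a log2 fold change of 1.45 (edgeR adjusted p = 0.00937). DIO3, a deiodinase gene of the MEG3 cluster, was higher by 2.23 (edgeR adjusted p = 0.0173) at 0.176 CPM or less on average, and this call was lost in 6 of 13 alternatives, 4 of them fits that left out a library. GRB10 lost its call without Cal33 sham replicate 1 (adjusted p = 0.0511). CPA4 and GRB10 were higher again under GSK-J1, by 2.02 and 1.57.

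Genes of the insulin-like growth factor axis other than IGF2 were called in both lines. IGF2 itself is included in the counts of genes tested. In SAS 1 of 16 tested was called after 4 Gy (7.08% of all genes were), IGFBP1, a binding protein, at 1.40 ± 0.195 CPM after 4 Gy and 0.541 ± 0.0598 CPM after sham (SD, n = 3 each; log2 fold change 1.37, edgeR adjusted p = 0.00207). In Cal33 3 of 15 were higher and 0 lower after 4 Gy, beside 3.47% and 2.81% of all genes. These were the binding proteins IGFBP3 (1.57, edgeR adjusted p = 0.0124) and IGFBP6 (1.03, edgeR adjusted p = 0.0422) and the receptor substrate IRS1 (0.50, edgeR adjusted p = 0.0326). The same genes were called under GSK-J1 in each line. IGFBP6 and IRS1 were each called in 1 of 6 fits that left out a library for 4 Gy against sham, and in 2 and 1 of 6 under GSK-J1. IRS1 was lost in 7 of 14 alternatives for 4 Gy against sham. With the block in SAS, which called 5734 of all 23416 genes, 2 genes of this axis were higher and 3 were lower after 4 Gy.

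Of 22 tested regulators of imprints in SAS, 1 was higher and 2 were lower after 4 Gy, beside 3.63% and 3.45% of all genes. TET1, which oxidises methylated cytosine, averaged 1.602 ± 0.124 CPM after 4 Gy and 3.17 ± 0.576 CPM after sham in SAS (SD, n = 3 each; log2 fold change -0.99, edgeR adjusted p = 0.0113). In Cal33 it averaged 1.71 ± 0.187 CPM after 4 Gy and 2.98 ± 0.0773 CPM after sham (log2 fold change -0.79, edgeR adjusted p = 0.0260, lost whichever 1 of the 6 libraries was left out). DNMT1, which copies DNA methylation after replication, was at 0.41 (edgeR adjusted p = 0.0301) and ZNF445 at -0.26 (edgeR adjusted p = 0.0473) in SAS. When 1 of the 6 libraries was left out in turn, DNMT1 was called in 1 of 6 fits and ZNF445 in 0 of 6, and ZNF445 was called in 4 of 15 alternatives in all. In Cal33 ZFP57 was at 2.69 (edgeR adjusted p = 0.0460) and KDM6A, a target of GSK-J1, at 0.69 (edgeR adjusted p = 0.0349). ZFP57 was called in 1 and KDM6A in 2 of the 6 fits that left out a library, and KDM6A was not called in the fits of the 6 libraries alone. Under GSK-J1 none of the 22 regulators was called in SAS, and the paired fit, which called 5029 of all 23416 genes, called 6 of them higher and 5 lower.

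CDKN1C was compared with the other inhibitors of its family. In SAS, CDKN1A (p21), a target of p53, averaged 122.5 ± 5.19 CPM after 4 Gy and 85.4 ± 11.5 CPM after sham (SD, n = 3 each; log2 fold change 0.52, edgeR adjusted p = 0.0158). CDKN1B (p27) was at -0.37 (edgeR adjusted p = 0.0299), and CDKN1C had 0.507, 0.537 and 0.388 CPM after 4 Gy, against 0.560, 0.783 and 0.362 CPM after sham, which overlapped. Of 6 fits that left out a library, CDKN1A was called in 3 and CDKN1B in 1, and CDKN1B lost its call in 7 of 15 alternatives. None of the 3 was called in Cal33.

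The genes whose pattern was nearest to that of H19 were taken by the smallest root mean square difference of centred log2(CPM + 1) values, among autosomal genes with a mean of at least 1 CPM. Over the 24 libraries these were UBB, MT1E, KRT7, VGLL3 and KRT19, at 0.505 to 1.17, where H19 itself spread by 4.61 around its mean. All 5 separated SAS from Cal33, for example KRT7 at 2849 CPM in SAS and 11.2 CPM in Cal33. This follows from the choice, since H19 itself differed mainly between the lines. Over the 12 SAS libraries they were DSC3, WNT10A, DTX4, ZNF608 and SYNPO, at 0.115 to 0.135, where H19 spread by 0.461. DSC3, a desmosomal cadherin, averaged 63.9 ± 3.75 CPM after 4 Gy and 120.1 ± 12.6 CPM after sham (SD, n = 3 each). Since these genes were picked for likeness to H19 in SAS, such a fall was built into the choice. No gene was on both lists.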

How the data were processed

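Total RNA from SAS and Cal33 was prepared with a stranded kit. Per the labels, the authors aligned reads to hs37d5 with STAR 2.5.3a, sorted with SAMtools 1.6 and counted genes with featureCounts of Subread 1.5.1, with no replicate pooled. The deposited tables gave raw counts per gene and strand, and TPM values the authors derived from them. Counts on the gene strand (54200036 to 96848227 per library) were used, and TPM only to check rank. The members and gene lists were chosen with earlier results of these data known. Named list genes were up to 3 called genes of largest change per list and comparison.

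Testing was limited to genes that averaged 1 count or more, in R 4.3.3 with edgeR 4.0.16 (TMM, quasi-likelihood F test, Benjamini-Hochberg adjusted p under 0.05 over all genes tested). The 12 libraries of a line shared 1 fit. The line comparison and the differences between lines used all 24. SEs were derived from the log2 fold change and its F statistic. The script was tested on simulated data. Alternatives were the DESeq2 1.42.0 Wald test and its size factors, no filter, a mean of at least 10 counts, a replicate block, the 6 compared libraries alone, counts regardless of strand, and leaving out single libraries or the 2 SAS libraries with Cal33 transcripts. Likeness to H19 was limited to autosomal genes after values were seen. Replicate numbers paired the libraries where same-numbered deviations from group means correlated over 0.1 in every pair. The lowest correlations were 0.139 to 0.286 in SAS. In Cal33 they were 0.400 and 0.105 between groups that received GSK-J1 + 4 Gy and their references, and -0.349 and -0.332 with sham.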

Additional observations from a re-analysis of the deposited data

Results flagged for a closer look

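The irradiation response of CPA4, an imprinted gene close to MEST, differed between the lines by the edgeR interaction test. CPA4 averaged 239.2 ± 21.6 CPM after 4 Gy and 178.3 ± 56.1 CPM after sham in SAS, and 289.9 ± 17.2 CPM after 4 Gy and 56.5 ± 7.57 CPM after sham in Cal33 (SD, n = 3 each). The SAS effect minus the Cal33 effect was -1.94 on the log2 scale for 4 Gy against sham (SE 0.27, edgeR adjusted p = 0.00281). Under GSK-J1 it was -1.90 for GSK-J1 + 4 Gy against GSK-J1 (SE 0.27, edgeR adjusted p = 0.00293). Both differences were called in 19 of 19 alternatives. With 3 samples per group, no test for single outlying samples was made.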

How the results depend on the processing

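The members called for 4 Gy against sham in SAS were 2, or 3 (MEST added) with the replicate block, with the 6 libraries alone and the block, and without SAS sham replicate 3. For GSK-J1 against sham in SAS, 0 members were called, or 2 (H19 and PHLDA2) with the 6 libraries alone and the replicate block. For GSK-J1 + 4 Gy against GSK-J1 in SAS, 2 members were called, 4 with the 6 libraries alone and the block, 0 without the 2 SAS libraries that carried Cal33 transcripts, and 1 to 3 when single libraries were left out. In Cal33, IGF2 was the 1 member called for 4 Gy against sham with the replicate block. For GSK-J1 + 4 Gy against GSK-J1 in Cal33, 1 member (H19) was called by DESeq2 and with no filter, 2 (IGF2 and PHLDA2) with the block and 3 with the 6 libraries alone and the block. The causes were not tested. Members called between the lines were 6, and 5 to 6 when single libraries were left out. Of the 10 member values that were called, 0 changed sign in any alternative. Of the 93 that were not, 45 changed sign in at least 1, so no direction is read from these. In Cal33 the numbers did not pair libraries with sham, so the IGF2 call with the block there rests on a shared number alone. Genes called for 4 Gy against sham in SAS were 1658, 2845 by DESeq2 and 897 with the 6 libraries alone. Depth limited IGF2 and MEG3, with at most 56 counts in a library.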
